A study of Mus musculus with 26 samples.

Results

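The late 2-cell mouse embryo switches on transcripts that neither the oocyte nor the early 2-cell embryo holds, and 69 of the strongest are described here. They were taken from 24412 gene symbols by their levels in control libraries, given as TPM, a share of all transcripts after correction for their length that sums to about 1000000 in each library. The mean had to lie under 1 TPM in control MII oocytes and under 1 TPM in control early 2-cell embryos (E2C), and both control late 2-cell (L2C) libraries had to reach 20 TPM. The symbols of 2 small nucleolar RNAs that met these levels were left out. Because control libraries chose the members, their low levels in MII and E2C controls and high levels in L2C controls are descriptions and not findings.

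PolyA RNA was sequenced from 26 libraries in 13 groups of 2, all of the C57BL/6J strain, with 12 to 20 oocytes or embryos pooled for a library and 20 at the L2C stage. In the knockout females, Zp3-Cre, a recombinase active in growing oocytes, acted on conditional alleles of Kdm3a and Kdm3b, and their oocytes were fertilised in vitro by wild-type sperm. These maternal double-knockout groups are called mDKO, and the embryos' paternal alleles were wild type. The Kdm3a level of MII oocytes was 8.08 and 8.83 TPM in control against 0.725 and 0.718 TPM in mDKO, and that of Kdm3b 26.6 and 24.97 against 1.75 and 1.87 TPM, as the labels have it. Control and mDKO groups were sampled as MII oocytes, E2C and L2C without injection. The titles of the L2C knockout libraries say DKO where those of the other stages say mDKO, while the genotype label names the maternal knockout at every stage. At E2C there were 4 injected groups, made of control embryos given mCherry and of mDKO embryos given either mCherry, Kdm3aWT or Kdm3aHA. Wild-type 4-cell embryos (4C) were injected with mCherry, Kdm3aWT or Kdm3aHA. The alleles of the control females, the hours of collection, the injected material and what HA stands for were not stated in the sources used here.

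Transcription from the embryo's own genome begins in the mouse with a minor wave around the late 1-cell and early 2-cell stage. A major wave follows in the late 2-cell embryo and brings in genes of RNA processing, translation and energy metabolism while the oocyte's stored RNA is cleared. Dimethylation of histone H3 at lysine 9 is a mark of silent chromatin, and KDM3A and KDM3B are enzymes that remove mono- and dimethyl groups from that lysine.

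In control L2C embryos the members ran from 20.1 to 391 TPM in single libraries, and together they made up 3535 and 3198 TPM in replicates 1 and 2. The same genes summed to 32.5 and 31.1 TPM in control E2C, and to 13.1 and 14.7 TPM in control MII oocytes. Their known roles varied. Roles were assigned after their values were seen. By role, 10 belong to mitochondria, metabolism and transport, and 10 were grouped under blood and immune cells. RNA processing and translation held 9, and membrane traffic and lipid signalling 8. A further 7 act in signalling, growth and cell death, and 6 were grouped as multi-copy genes. Rps27 and Hba-a2 also have a copy but were grouped by role. Another 3 were grouped under cilia and germ cells, and 16 are of other or unknown role. By the GENCODE annotation of GRCm38, 61 of 68 with an entry were protein coding (89.7%, against 85.2% of all genes of the tables). They lay on 19 chromosomes, with 8 each on chromosomes 7, 11 and X.

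**Figure D1:**
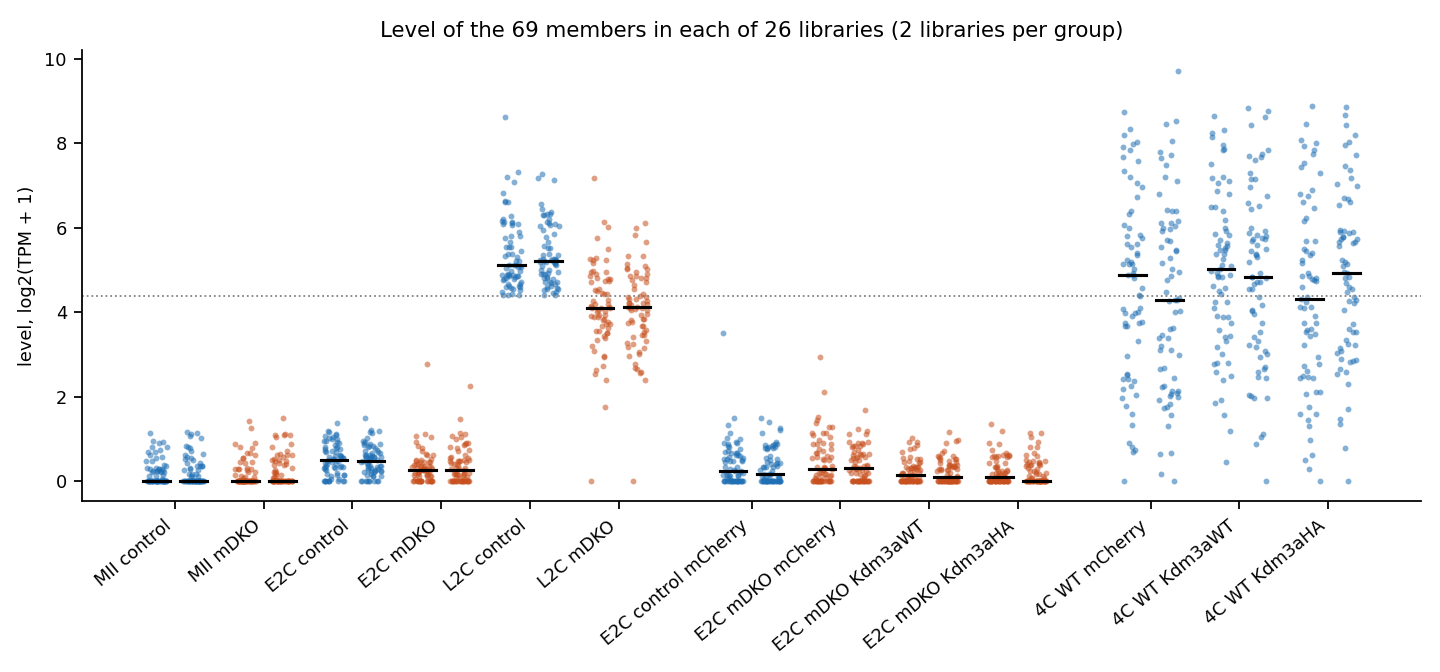
Level of each of the 69 members, log2(TPM + 1), in each of the 26 libraries. Points are genes, black bars the median of the library, blue stands for control or wild-type and orange for mDKO libraries, and the dotted line is the level of 20 TPM that chose the members in L2C control. No member reaches the line in an MII or E2C library, where the highest single value is 10.4 TPM, all lie above it in L2C control, 27 and 22 do in L2C mDKO replicates 1 and 2, and the members spread widely at 4C.

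In late 2-cell mDKO embryos most of these transcripts were lower than in control embryos. Their summed level was 1485 and 1340 TPM in mDKO replicates 1 and 2. The median member in mDKO embryos stood at 41.9% of its mean control level, with quartiles at 28.8% and 56.8%. There were 46 members under 50% of control and 12 under 25%. By limma, 55 of the 69 were called lower and 1 higher (adjusted p under 0.05), where 23.3% of all tested genes were called lower and 19.1% higher. Both mDKO libraries lay below both control libraries for 61 members, where this held for 37.6% of all tested genes, and above both for 2, where it held for 35.8%. The median log2 fold change was -1.18 over the members, beside a median near 0 over all 12606 genes tested. Without a filter on low TPM, 28 members were called lower and none higher.

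These counts compare through the same control libraries that chose the members, so they describe and do not test. As a background of like strength, of 4128 genes with both control libraries at 20 TPM or more, 43.6% were called lower. A further comparison chose the genes on 1 L2C control replicate and set the other against both mDKO libraries. Chosen on replicate 1 and compared through replicate 2, 80 genes had a median log2 fold change of -1.17, beside -0.08 over all genes. Chosen on replicate 2 and compared through replicate 1, 88 genes had a median of -1.12, beside 0.05 over all genes. Those backgrounds hold genes of every level, and none of like strength was taken here, so these values are descriptions too. With 2 libraries a group no exact permutation test can go below p = 0.333, and whether pools came from separate matings is not stated in the labels, so the p-values measure only the spread between these pools.

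In pools of embryos, fewer embryos that had switched a gene on and less RNA from each cannot be told apart. Transcripts of the oocyte moved the other way at the same time. Summed over 47 oocyte and maternal-effect genes, control L2C libraries held 138600 and 133100 TPM and mDKO libraries 194900 and 189400 TPM, with 35 of 46 tested genes called higher and 1 lower. The 113 strong new transcripts of the early 2-cell stage (under 1 TPM in MII control, at least 20 TPM in both E2C control libraries) also differed from the late ones, with 15% called lower and 47.8% called higher in L2C mDKO embryos. The part of stage or of oocyte RNA in the members' lower levels was not tested.

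**Figure D2:**
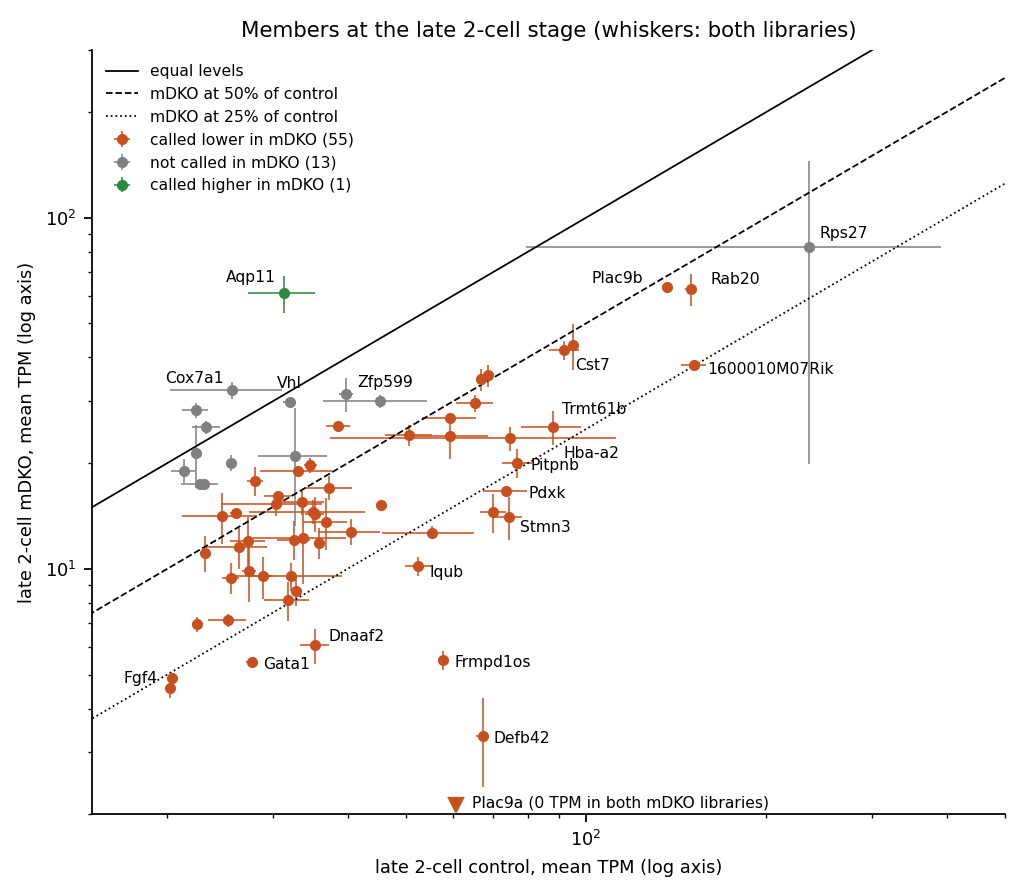
Mean TPM of each member in late 2-cell control (horizontal, log axis) and mDKO embryos (vertical, log axis). Points are genes, whiskers reach both libraries of a group, and lines mark equal levels, 50% and 25% of control. Most points lie near or under the 50% line, Plac9a (drawn at the lower edge, since it was listed at 0 TPM in both mDKO libraries), Defb42 and Frmpd1os lie farthest below, and Aqp11 lies above the line of equal levels.

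Plac9a and Plac9b are near-identical copies, both named for a small secreted protein of the placenta. Plac9a stood at 76.4 and 45.0 TPM in control L2C embryos and was listed at 0 TPM in both mDKO libraries. Plac9b stood at 134.6 and 138.9 TPM in control against 63.8 and 62.9 TPM in mDKO embryos. The groups did not overlap for either gene, and both were called lower. The log2 fold change was -5.90 ± 0.29 SE for Plac9a (adjusted p = 0.000146) and -1.10 ± 0.12 SE for Plac9b (adjusted p = 0.000607). The authors' read assignment could split reads between such copies, so the sum of both is given too: it was 211 and 184 TPM in control and 63.8 and 62.9 TPM in mDKO embryos. At 4C the same pair summed to between 496 and 727 TPM in the 6 libraries, and Plac9a alone to between 242 and 473 TPM.

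Defb42, a beta-defensin of the antimicrobial peptide family, stood at 68.99 and 65.5 TPM in control against 2.40 and 4.29 TPM in mDKO embryos (log2 fold change -4.01 ± 0.24, adjusted p = 0.000171). Frmpd1os, a long noncoding RNA on the strand opposite Frmpd1, stood at 58.6 and 56.8 TPM in control against 5.14 and 5.83 TPM in mDKO embryos (-3.18 ± 0.17, adjusted p = 0.000146). These were the members with the lowest mDKO share after Plac9a, at 4.97% and 9.51% of control. Their partners on the other strand were low at L2C: Defb30 lay between 0.167 and 1.65 TPM and Frmpd1 between 0.447 and 0.736 TPM in the 4 libraries.

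Aqp11, an aquaporin of intracellular membranes, was the only member called higher in mDKO embryos. It stood at 27.3 and 35.3 TPM in control against 53.5 and 68.4 TPM in mDKO embryos (log2 fold change 0.94 ± 0.19, adjusted p = 0.00708). The call was lost without mDKO replicate 2 (adjusted p = 0.0653) and without a filter on low TPM (adjusted p = 0.137). A830080D01Rik, named Bclaf3 in RefSeq, also had both mDKO libraries above both control libraries, at 29.8 and 26.9 against 21.2 and 23.4 TPM, and was not called (adjusted p = 0.132).

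The start regions of these 5 genes are given for reference, as the members with the lowest and the highest mDKO share and the near-identical pair. Each is the stretch from 250 bases before to 50 bases after the annotated start in RefSeq for GRCm38.p6, 300 bases in all, read 5′ to 3′ on the gene's strand. Capitals mark GC boxes (GGGCGG), the CCAAT box and the motif TCAAGGNCA of the nuclear receptor NR5A2, found on either strand, where N is any base. Plac9a is at chr14:25902844-25903143 and Plac9b at chr14:26182302-26182601, both on the minus strand. Defb42 is at chr14:63046741-63047040 on the plus strand, Frmpd1os at chr4:45243941-45244240 and Aqp11 at chr7:97738198-97738497, both on the minus strand.
Plac9a: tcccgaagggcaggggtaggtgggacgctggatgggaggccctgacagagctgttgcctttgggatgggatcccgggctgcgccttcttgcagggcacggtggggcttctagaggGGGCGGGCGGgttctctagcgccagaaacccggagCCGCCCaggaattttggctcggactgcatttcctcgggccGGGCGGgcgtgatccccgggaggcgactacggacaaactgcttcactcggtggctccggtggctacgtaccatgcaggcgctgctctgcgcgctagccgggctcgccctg
Plac9b: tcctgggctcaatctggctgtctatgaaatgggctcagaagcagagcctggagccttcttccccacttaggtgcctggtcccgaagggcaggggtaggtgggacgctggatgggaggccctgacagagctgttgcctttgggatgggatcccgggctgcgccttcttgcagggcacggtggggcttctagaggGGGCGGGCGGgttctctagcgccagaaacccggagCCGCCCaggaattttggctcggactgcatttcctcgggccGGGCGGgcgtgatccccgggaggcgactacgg
Defb42: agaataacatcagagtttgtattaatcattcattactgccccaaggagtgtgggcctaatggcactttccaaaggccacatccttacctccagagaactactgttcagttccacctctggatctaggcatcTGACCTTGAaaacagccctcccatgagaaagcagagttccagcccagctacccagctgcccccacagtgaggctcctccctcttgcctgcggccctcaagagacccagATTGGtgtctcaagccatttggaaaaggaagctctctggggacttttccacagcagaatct
Frmpd1os: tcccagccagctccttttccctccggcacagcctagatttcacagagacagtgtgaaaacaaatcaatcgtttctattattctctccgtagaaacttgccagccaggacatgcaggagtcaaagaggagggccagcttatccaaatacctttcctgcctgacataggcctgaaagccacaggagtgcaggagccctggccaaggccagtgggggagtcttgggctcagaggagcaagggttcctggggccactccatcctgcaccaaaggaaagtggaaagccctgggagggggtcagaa
Aqp11: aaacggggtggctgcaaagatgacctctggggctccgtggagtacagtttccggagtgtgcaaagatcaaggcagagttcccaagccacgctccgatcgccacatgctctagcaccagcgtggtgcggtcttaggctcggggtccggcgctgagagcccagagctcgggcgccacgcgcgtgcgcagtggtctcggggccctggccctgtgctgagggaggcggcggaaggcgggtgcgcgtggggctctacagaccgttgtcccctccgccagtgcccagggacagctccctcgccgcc

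The windows of Plac9a and Plac9b share an unbroken run of 222 bases, offset because their annotated starts differ, and both hold GC boxes. The windows of Frmpd1os and Aqp11 held none of the 11 motifs searched. Defb42 held the only NR5A2 motif among the 64 windows found for 57 members (1.6%, against 1.6% of all 32851 windows). Over the members' windows, 42.2% held a GC box against 35.7% of all windows, and 40.6% a CCAAT box against 37.4%. A TATA box (TATAAA) was in 9.4% against 13.6%, and a GGATTA motif of OBOX-type homeodomain proteins in 7.8% against 7.1%. An ETS site (CCGGAAG) was in 6.2% against 8.9%, an E-box (CACGTG) in 7.8% against 7.2%, and an NRF1 site (GCGCATGC) in 3.1% against 2.7%. No member window held the DUX motif TGATTNAAT, which 0.7% of all windows hold, a KLF site (GGGTGTGG), which 3.6% hold, or the cyclic AMP response element TGACGTCA, which 1.8% hold. Both strands were searched, and none of the motifs contains another. GC content had a median of 54.5% against 52.7%, and a window held a median of 10.5 CG dinucleotides against 7 in all windows. Neither difference was tested. A match is a string of letters and not a measured binding site, and no match says only that these letters are not in the window.

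Among the members that serve RNA processing and translation, 8 of 9 were called lower, at a median of 40.2% of control. Trmt61b, named for a tRNA methyltransferase and listed by RefSeq as a long noncoding RNA at this locus, stood at 98.2 and 77.9 TPM in control and 22.6 and 28.1 TPM in mDKO embryos (log2 fold change -1.75 ± 0.18, adjusted p = 0.000498). Rpp40, a subunit of the RNA enzymes RNase P and RNase MRP, stood at 69.9 and 60.7 TPM in control and 28.01 and 31.3 TPM in mDKO embryos. Snrnp35, a protein of the minor spliceosome, stood at 49.97 and 68.6 against 27.1 and 20.6 TPM. Groups did not overlap for any of these genes. Mettl2, a tRNA methyltransferase, Gtf3c5, a subunit of the transcription factor TFIIIC, Oraov1, a ribosome maturation factor, Ddx26b, related to a subunit of the Integrator complex, and Eif2s3y, the Y-linked form of a subunit of initiation factor eIF2, lay between 26.4% and 55.4% of control, and all 5 were called lower.

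Rps27, a protein of the small ribosomal subunit, was the strongest member and the one not called in that group. Its control libraries held 391 and 79.4 TPM and its mDKO libraries 145 and 19.95 TPM, so that the groups overlapped (log2 fold change -1.68 ± 0.97, adjusted p = 0.201). It has a near-identical copy, Rps27rt, which is no member because it was already present before L2C. Rps27rt stood at 52.6 and 90.7 TPM in control MII oocytes and at 25.7 and 25.3 TPM in control E2C. How far the low early level of Rps27 rests on reads split between the copies was not tested. Rps27rt ran the opposite way between replicates at L2C, at 526 and 981 TPM in control and 108 and 288 TPM in mDKO embryos. The sum of both genes was 917 and 1060.0 TPM in control and 253 and 308 TPM in mDKO embryos, which did not overlap. Without mDKO replicate 1, Rps27 alone was called lower (adjusted p = 0.0379). The sum reached 2969 to 3793 TPM in the 6 libraries at 4C.

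The members of membrane traffic and lipid signalling included 7 of 8 called lower, at a median of 41.3% of control. Rab20, a small GTPase of the endocytic pathway, stood at 146.5 and 152.6 TPM in control and 69.2 and 56.2 TPM in mDKO embryos (log2 fold change -1.25 ± 0.14, adjusted p = 0.000726). Pitpnb, a carrier of phosphatidylinositol between membranes, stood at 72.3 and 81.3 TPM in control and 21.97 and 18.1 TPM in mDKO embryos (-1.89 ± 0.16, adjusted p = 0.000321). Tor1b, a torsin ATPase of the endoplasmic reticulum and nuclear envelope, stood at 45.6 and 65.0 against 12.2 and 13.2 TPM, the lowest share of the group at 22.9%. Emc9 of the endoplasmic reticulum membrane complex, Rtn2 of the reticulon family, Osbpl6 of the oxysterol-binding proteins and Plcd4, a phospholipase C, lay between 36.1% and 63.5% and were called lower. The call for Plcd4 was lost when any 1 library was left out (adjusted p from 0.0586 to 0.149). Rab39, a further small GTPase, was not called, at 25.97 and 25.2 against 21.03 and 18.95 TPM (adjusted p = 0.123), although its groups did not overlap.

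Mitochondria, metabolism and transport held 7 of 10 called lower, Aqp11 called higher and 2 not called. Pdxk, the kinase that makes the active form of vitamin B6, stood at 67.2 and 79.8 TPM in control and 16.2 and 17.2 TPM in mDKO embryos (log2 fold change -2.07 ± 0.15, adjusted p = 0.000238). Hsd17b14, a short-chain dehydrogenase, stood at 53.3 and 65.4 against 26.6 and 27.1 TPM (-1.11 ± 0.16, adjusted p = 0.0017). Timm22, part of the machinery that inserts carriers into the inner mitochondrial membrane, stood at 26.4 and 24.7 against 10.4 and 8.48 TPM. Mfsd7b, also known as Flvcr1, a haem and choline transporter, was lowest of the group at 22.6%, and Sult2b1, a sterol sulfotransferase, highest of those called lower at 51.9%. Cox7a1, a subunit form of cytochrome c oxidase, was not called, at 20.3 and 31.1 TPM in control and 30.5 and 34.2 TPM in mDKO embryos (0.35 ± 0.22, adjusted p = 0.234). Slc22a20, an organic anion transporter, stood at 22.6 and 22.1 against 25.7 and 17.0 TPM, with overlapping groups (adjusted p = 0.766).

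**Figure D3:**
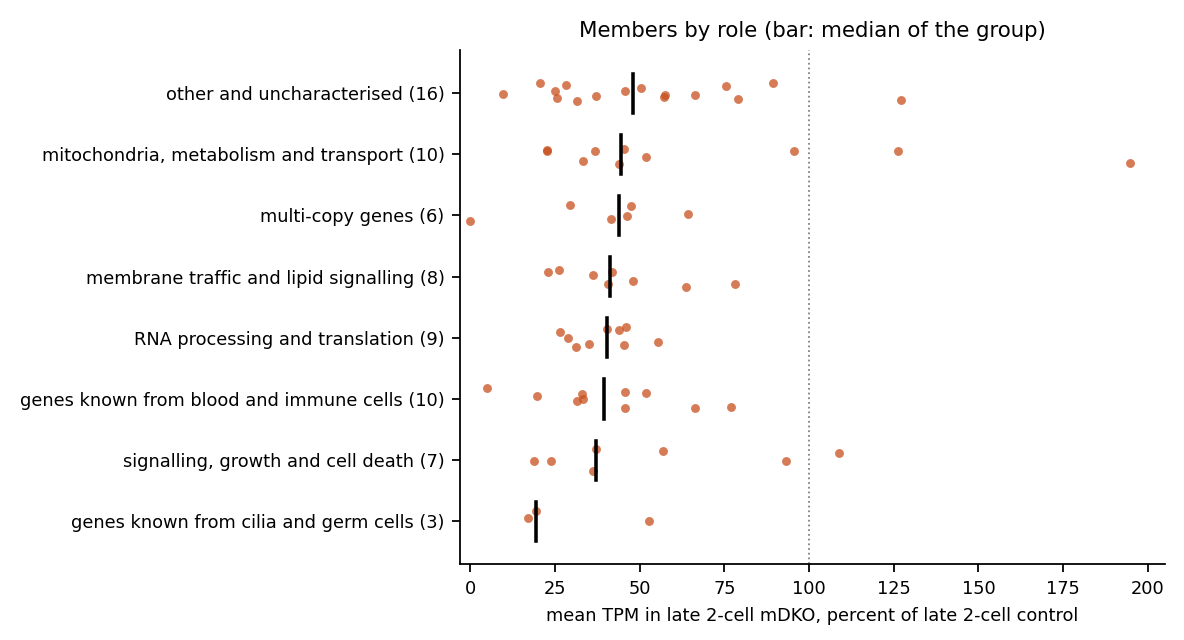
Mean TPM in late 2-cell mDKO embryos as a percent of the mean in late 2-cell control embryos, for each member, by role. Points are genes, black bars the median of the role group, the number of genes stands in brackets, and the dotted line marks equal means. The medians of the 8 groups lie between 19.4% and 48.0%, and the 4 points above 100% are Aqp11, A830080D01Rik, Cox7a1 and Ccnjl.

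Among the members grouped under blood and immune cells, 8 of 10 were called lower, at a median of 39.5% of control. Defb42, described above, was counted in this group and had its lowest share, 4.97%. Gata1, a transcription factor of red blood cell precursors, was listed at 0 TPM in all MII and E2C libraries, with and without injection. It stood at 28.3 and 27.1 TPM in control L2C embryos against 5.55 and 5.30 TPM in mDKO embryos (log2 fold change -2.16 ± 0.18, adjusted p = 0.000299). Lst1, a transcript known from leukocytes, stood at 96.3 and 93.7 against 36.9 and 49.7 TPM (-1.13 ± 0.17, adjusted p = 0.00203). Cst7, the cysteine protease inhibitor cystatin F, stood at 97.2 and 86.8 against 44.4 and 39.4 TPM (-1.12 ± 0.14, adjusted p = 0.00105). Groups did not overlap for these 3 genes. Lck, a kinase of T cells, Sike1, an inhibitor of kinases that induce interferon, and Ifi35, an interferon-induced protein, were called lower too, at 32.9%, 33.4% and 51.9% of control. Tnfaip8l2, a regulator of immune signalling, at 36.3 and 54.3 against 28.8 and 31.3 TPM, and Tnfrsf17, a receptor of B cells, at 24.4 and 21.1 against 17.3 and 17.6 TPM, were not called (adjusted p = 0.0674 and 0.126).

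Of the 6 blood markers that are no members, 3 were at or near 0 and 3 were at 1 TPM or more in every L2C library. The beta-globin gene Hbb-bs was listed at 0 TPM in all 26 libraries. Its neighbour Hbb-bt and Ptprc, the common leukocyte antigen, were listed at 0 in 3 of the 4 L2C libraries and stood at 0.296 and 0.106 TPM in mDKO replicate 2. Cd74, the invariant chain of antigen presentation, stood at 9.04 and 6.19 TPM in L2C control and 10.5 and 31.6 TPM in mDKO embryos. The sum of the 6 was 196 and 322 TPM in L2C control and 45.7 and 265.5 TPM in mDKO embryos. It rested on the alpha-globin copy Hba-a1 in control (183 and 312 TPM) and on the lysozyme gene Lyz2 in mDKO replicate 2 (204.6 TPM), and its part in the members' levels was not tested. The member Hba-a2, an alpha-globin chain, stood at 112 and 37.4 TPM in control and 21.7 and 25.3 TPM in mDKO embryos (log2 fold change -1.43 ± 0.44, adjusted p = 0.0358). That call was lost under median-ratio size factors (adjusted p = 0.0556), without control replicate 1 (0.0514), without mDKO replicate 1 (0.139) and without mDKO replicate 2 (0.102). Summed with its copy Hba-a1, which was already at 10.3 and 17.7 TPM in control E2C, it gave 295 and 349.5 TPM in control and 50.6 and 54.2 TPM in mDKO embryos.

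In signalling, growth and cell death, 5 of 7 members were called lower. Fgf4, the growth factor that later acts between the lineages of the blastocyst, stood at 20.5 and 20.3 TPM in control and 4.81 and 4.96 TPM in mDKO embryos (log2 fold change -1.86 ± 0.19, adjusted p = 0.000485). Stmn3, a tubulin-binding protein of the stathmin family, stood at 70.5 and 78.2 against 12.1 and 16.1 TPM (-2.33 ± 0.18, adjusted p = 0.000247). C1qtnf4, a secreted C1q-like protein, and Bcl2l14, a relative of BCL2, were at 37.2% and 36.2% of control. Vhl, the tumour suppressor that directs hypoxia-inducible factors to degradation, stood at 93.3% of control, with 32.8 and 31.2 TPM in control and 30.05 and 29.8 TPM in mDKO embryos, and was not called (-0.10 ± 0.14, adjusted p = 0.622). Ccnjl, a cyclin J relative, stood at 21.98 and 24.5 against 26.4 and 24.1 TPM, with overlapping groups (0.12 ± 0.16, adjusted p = 0.584).

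All 3 members grouped under cilia and germ cells were called lower. Dnaaf2, which helps to assemble ciliary dynein, stood at 33.3 and 37.3 TPM in control and 6.76 and 5.36 TPM in mDKO embryos (log2 fold change -2.37 ± 0.19, adjusted p = 0.000277). Iqub, a protein of cilia and sperm tails, stood at 55.3 and 49.8 against 10.8 and 9.56 TPM (-2.26 ± 0.16, adjusted p = 0.000218). L1td1, an RNA-binding protein of pluripotent cells, stood at 52.9% of control, with 32.2 and 28.96 against 15.99 and 16.3 TPM. Of the multi-copy members, Pramel3 and AV320801 were at 29.6% and 41.5% of control. The group of other or unknown role held 12 of 16 called lower, among them the noncoding RNA 1600010M07Rik at 158.6 and 144 against 36.7 and 39.3 TPM. Zfp599, a zinc finger gene (38.7 and 40.9 against 35.1 and 27.9 TPM), and Ctrb1, a digestive protease gene (20.3 and 22.3 against 20.5 and 17.6 TPM), were not called.

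Gene neighbours could add reads to some members, since the authors' strand setting is not given. Of the members, 15 had another gene of the tables on the opposite strand, and for 4 of these the partner reached 20 TPM in both L2C control libraries: Clhc1 with Rps27a, 1600010M07Rik with Zfp143, Plcd4 with Usp37 and Rbm3os with Rbm3. Clhc1 stood at 45.4 and 35.7 TPM in control and 13.9 and 11.7 TPM in mDKO embryos while Rps27a stood at 708 and 631.5 against 251 and 229.8 TPM, so reads of the ribosomal protein gene could not be told apart from those of Clhc1. Rbm3os stood at 28.2 and 21.2 against 16.5 and 11.8 TPM while Rbm3 stood at 83.9 and 82.5 against 88.3 and 84.8 TPM. All 15 members with a gene of the tables on the opposite strand were called lower, where 23.3% of all tested genes were. The part of neighbours' reads in these calls was not tested. Among the 54 members with no gene of the tables on the opposite strand, 40 were called lower. These 40 include Lbhd1, which overlaps 1810009A15Rik on the same strand. Lbhd1 stood at 40.8 and 33.8 TPM in control and 18.4 and 15.7 TPM in mDKO embryos. For 1810009A15Rik the levels were 673 and 736 against 423 and 388 TPM. With annotated genes outside the tables, small RNAs aside, 26 of 68 members had an opposite-strand neighbour, 38.2% against 34.1% of all genes.

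Just inside the level that chose the members lay Mfsd7b (20.3 and 20.1 TPM in L2C control), Fgf4 (20.5 and 20.3), Ctrb1 (20.3 and 22.3), Cox7a1 (20.3 and 31.1) and Tnfrsf17 (24.4 and 21.1). Just outside lay Rprd1b (20.6 and 19.6), Klhl10 (21.3 and 19.7), Fam212a (19.3 and 23.3), Cxcl11 (20.3 and 19.1) and Fcgrt (19.9 and 21.5). Their mDKO levels did not divide at the threshold. Rprd1b stood at 7.31 and 9.35 TPM in mDKO embryos, Klhl10 at 6.36 and 8.21, Cxcl11 at 5.20 and 6.97, Fcgrt at 12.9 and 10.3, and Fam212a at 16.8 and 22.7 TPM.

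Although lower, most members did come on in mDKO embryos. From E2C to L2C within mDKO embryos, libraries that the rule did not use, 65 members reached 5 TPM in both L2C libraries and 68 reached 1 TPM. Plac9a was listed at 0 in both. All 68 that passed the filter on low TPM did so through their L2C level and were called higher by limma, where 33.3% of all genes tested were called higher. Without a filter, 64 of 69 members were called higher, with a median log2 fold change of 3.69 over the members. There 12.1% of all 24412 genes were called higher, a background that also holds genes too low to pass the filter. Neither background was chosen as the members were, so these counts describe and do not test. Among the 68 tested, the fitted rise was largest for Plac9b (from 0.117 and 0 to 63.8 and 62.9 TPM, log2 fold change 5.93) and smallest for Defb42 (from 0 in both to 2.40 and 4.29 TPM, 2.08). Stage, library kit and sequencing run cannot be told apart in that rise, since the kit of the L2C libraries is not given.

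Applied to mDKO libraries, the same levels picked 80 genes, of which 20 were members (29.0% of the members and 25% of the 80). Of the 49 members not picked, 48 had an mDKO L2C library under 20 TPM and 4 had an MII or E2C mDKO mean of 1 TPM or more, with 3 in both classes. The 60 genes picked only in mDKO embryos differed mainly in the controls' early stages: 56 of them had a control E2C mean of 1 TPM or more, with a median of 2.45 TPM. Kdm3a, deleted in the mDKO oocyte, was 1 of the 60. At L2C, 28 of them were called lower and 8 higher in mDKO embryos. Gm11517, the strongest of them in mDKO embryos and named after its values were seen, had E2C means of 9.31 TPM in control and 0.966 TPM in mDKO embryos, and stood at L2C at 2884 and 2032 TPM in control and 950.2 and 1002 TPM in mDKO embryos.

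At the 4-cell stage the members went separate ways. Levels at 4C were deposited in another table and can be set beside L2C only as shares of their own libraries, and embryo stage, injection, genotype label and library preparation all differ. In mCherry-injected 4C embryos, 19 members had both libraries above both L2C control libraries, 39 had both below, and 11 overlapped. Those shares were near those of all genes at 20 TPM or more in both L2C control libraries, of which 22.3% lay above and 60.6% below. There were 32 members at 20 TPM or more in both mCherry libraries, 10 at 100 TPM or more, and 29 at 20 TPM or more in all 6 4C libraries. The summed level was 4363 and 4429 TPM, above that of L2C control embryos. The median member was lower, at 28.4 and 18.5 TPM with mCherry at 4C against 33.6 and 36.2 TPM in L2C control.

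**Figure D4:**
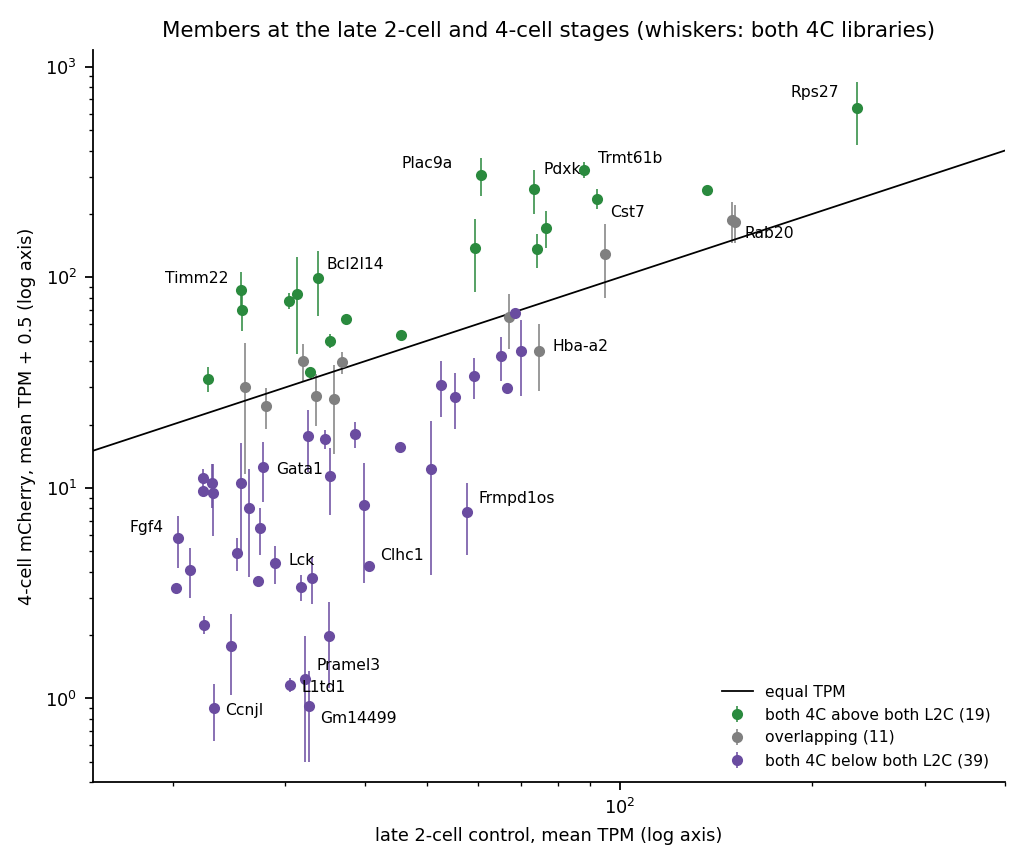
Mean TPM of each member in late 2-cell control embryos (horizontal, log axis) and in mCherry-injected 4-cell embryos (vertical, log axis, with a small offset so that 0 can be drawn). Points are genes, whiskers reach both 4C libraries, and the line marks equal TPM. The 19 members above both L2C libraries include Plac9a, Trmt61b, Pdxk and Rps27, and among the 39 below are Ccnjl, L1td1, Pramel3 and Gm14499, which lie near the bottom.

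The members highest at 4C relative to L2C were of several roles. Plac9a went from 76.4 and 45.0 TPM in L2C control to 242 and 369.9 TPM at 4C, 5.04 times its mean. Trmt61b reached 295 and 353 TPM (3.68 times), Pdxk 324 and 199 TPM (3.56 times) and Timm22 105 and 68.1 TPM (3.39 times). Bcl2l14 reached 133 and 65.3 TPM (2.93 times). Next came Cox7a1 at 55.4 and 83.9 TPM (2.72 times), Rps27 at 424 and 844 TPM (2.697 times) and Aqp11 at 124 and 42.7 TPM (2.66 times), none of them called lower in L2C mDKO embryos, and then Cst7 at 261 and 210.4 TPM (2.56 times). There were 12 members with at least 2-fold the L2C mean. Of the 19 members above their L2C level, 15 were among those called lower in L2C mDKO embryos, as were 30 of the 39 below and 10 of the 11 that overlapped, so members called lower were found on both sides.

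At the other end, several members were near 0 TPM at 4C. Gm14499 stood at 28.3 and 36.9 TPM in L2C control and at 0.852 and 0 TPM in 4C mCherry embryos. Ccnjl went from 21.98 and 24.5 to 0.671 and 0.126 TPM, and L1td1 from 32.2 and 28.96 to 0.744 and 0.576 TPM. Pramel3 went from 39.2 and 25.3 to 0 and 1.47 TPM, and AV320801, a sequence like it, from 42.8 and 27.4 to 0.620 and 2.36 TPM. There were 19 members with a 4C mean under 25% of that at L2C, and 4 stayed under 5 TPM in all 6 libraries. Lck stood at 4.79 and 2.99 TPM and Fgf4 at 6.83 and 3.68 TPM. Gata1 stood at 16.02 and 8.12 TPM.

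Extra Kdm3a in wild-type 4C embryos gave no call on any member. Injection itself was plain in the Kdm3a level, which was 21.8 and 6.24 TPM with mCherry, 108 and 53.4 TPM with Kdm3aWT, and 70.5 and 161 TPM with Kdm3aHA. By limma, 0 of 68 tested members and 0% of the 9669 genes tested were called for Kdm3aWT against mCherry, and likewise 0% for Kdm3aHA. At an unadjusted p under 0.05 there were 776 genes and 9 members for Kdm3aWT, and 264 genes and 4 members for Kdm3aHA. The libraries differed as a whole: mCherry replicate 2 detected 7649 genes at 1 TPM and the other 5 libraries 8754 to 9313. The median of all genes stood at 0.44 for Kdm3aWT and 0.35 for Kdm3aHA on the log2 scale, and moved to 0.07 and 0.05 under median-ratio size factors. Beside those, the members' median was 0.46 for Kdm3aWT, or 0.02 under size factors, and 0.18 for Kdm3aHA, turning to -0.18 under size factors. Leaving out mCherry replicate 1 called 3 members and 453 genes higher for Kdm3aWT, leaving out Kdm3aWT replicate 2 called 1, and both contrasts share the mCherry libraries.

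Replicates at 4C were far apart for several members. Tnfaip8l2 stood at 14.99 and 15.4 TPM with mCherry, 56.97 and 50.3 TPM with Kdm3aWT and 3.20 and 58.7 TPM with Kdm3aHA, so that the Kdm3aHA libraries lay on either side of both other groups. Eif2s3y, which is Y-linked and so depends on the sexes in a pool, stood at 48.4 and 11.1, 27.4 and 27.4, and 4.46 and 22.3 TPM in the same order. Trmt61b lay between 295 and 353 TPM in all 6 libraries. Dnaaf2 stood at 53.3 and 45.7 TPM with mCherry, at 88.6 and 86.5 TPM with Kdm3aWT, and at 43.9 and 97.3 TPM with Kdm3aHA. Tnfaip8l2, Eif2s3y and Dnaaf2 were chosen here after their values were seen.

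In injected early 2-cell embryos the members were low, as in the E2C embryos without injection. Their sum lay between 12.96 and 37.4 TPM in the 8 libraries, and the highest single value was 10.4 TPM. Kdm3a stood at 0.262 and 0.411 TPM in mDKO embryos with mCherry, at 4122 and 2315 TPM with Kdm3aWT and at 4043 and 3907 TPM with Kdm3aHA. The members' sums in mDKO embryos were 12.96 and 13.7 TPM for Kdm3aWT, 14.4 and 13.2 TPM for Kdm3aHA and 37.4 and 25.4 TPM for mCherry, and control embryos with mCherry held 33.3 and 22.6 TPM. Single genes weighed on these sums: Cox7a1 gave 6.68 of the 37.4 TPM and Rps27 10.4 of the 33.3 TPM. Libraries given Kdm3aWT or Kdm3aHA detected 9546 to 9704 genes at 1 TPM, and mDKO mCherry libraries 10284 and 10157. The part of such library differences in the sums was not tested.

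Only 9 members passed the filter on low TPM in injected E2C embryos, and those that passed through the group where they were highest had to differ, so their calls support nothing. With mCherry, 3 were called higher in mDKO than in control embryos, where 26.9% of all genes were called higher and 20% lower. The same 3 were called lower with Kdm3aWT than with mCherry in mDKO embryos, where 10.8% of all genes were called lower and 0.949% higher, and lower with Kdm3aHA than with mCherry, where 9.29% were called lower and 1.54% higher. All 3 contrasts share the mDKO mCherry libraries. Emc9 stood at 0 and 0 TPM in control against 3.28 and 2.19 TPM in mDKO embryos with mCherry, at 0.226 and 0 TPM with Kdm3aWT and at 0 in both with Kdm3aHA. 2210016L21Rik stood at 0 and 0, 1.61 and 1.27, 0.358 and 0, and 0 and 0 TPM in the same order. Lst1 stood at 0 and 0.811, 1.43 and 1.34, 0 and 0, and 0 and 0 TPM, and its call in the mDKO contrast was lost when mCherry control replicate 1 was left out (adjusted p = 0.187). Without injection Emc9 stood at 0.886 and 0.341 TPM in control E2C and at 0.152 and 1.08 TPM in mDKO E2C, with overlapping groups. Under size factors the median of all genes for Kdm3aWT moved from -0.19 to -0.02 on the log2 scale, and 3 members were called lower there too. Leaving out 1 library moved these small counts. Without mCherry control replicate 2, 4 members were called higher and 1 lower in the mDKO contrast. Without either mDKO mCherry replicate, or without Kdm3aWT replicate 2, 1 member was called for Kdm3aWT, and without mDKO mCherry replicate 1, 1 for Kdm3aHA.

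Factors known to take part in genome activation moved in both directions in L2C mDKO embryos, with 14 of 29 tested called lower, 8 higher and 7 not called. Over all tested genes, 23.3% were called lower and 19.1% higher. Dppa4, which with Dppa2 acts upstream of the minor wave, stood at 777 and 698 TPM in control and 276 and 255 TPM in mDKO embryos (log2 fold change -1.47 ± 0.11, adjusted p = 0.000238). Nr5a2, a nuclear receptor of the major wave, stood at 43.95 and 38.1 against 19.4 and 12.9 TPM (-1.32 ± 0.22, adjusted p = 0.0031). Obox8, a homeobox gene of the 2-cell embryo, stood at 809.5 and 641 against 215 and 172 TPM. Other Obox genes differed: Obox6 was called lower and Obox3 was not called. Obox1, Obox2, Obox5 and Obox7 were called higher, with log2 fold changes from 0.59 to 2.42. These were already high in control MII oocytes, from 680 and 724 TPM for Obox7 to 9980 and 10600 TPM for Obox2. All of them were lower in L2C control than in MII control. Obox1 went from 5780 and 6238 TPM to 449 and 381 TPM, beside 2111 and 2310 TPM in L2C mDKO embryos. The part of stored oocyte RNA in these calls was not tested. Zscan4d, a 2-cell gene of the minor wave, was called higher too, at 125 and 88.98 against 349 and 240.1 TPM. Ribosome and rRNA processing genes were called lower in 40 of 43, with a median log2 fold change of -1.10, beside -1.18 for the members. Of genes with both L2C control libraries at 20 TPM or more, 43.6% were called lower. From E2C to L2C within mDKO embryos, 25 of these 43 genes were called higher and 7 lower. The targeted genes stood at L2C at 34.1 and 43.8 against 28.4 and 26.3 TPM for Kdm3a and 3.06 and 3.70 against 0.651 and 1.79 TPM for Kdm3b, in embryos that also carry a wild-type paternal allele of both.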

How the data were processed

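The values are TPM per gene and library, as deposited by the authors in 3 tables. The submitters' processing notes list mm10 as the build and, with no roles given, the programs Bowtie2 2.3.4.1, SAMtools 1.9, STAR 2.7.10b and RSEM 1.3.1. Annotation, strand settings and filters are not stated there. The labels' protocols name TruSeq Stranded mRNA for MII oocytes, and SMART-Seq v4 or its successor for E2C and 4C embryos. Library totals ran from 999986 to 1000000 TPM, so sequencing depth cannot be recovered, and between 7649 and 12396 genes per library were at 1 TPM or more. Every column matched 1 sample by name.

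Tests used limma 3.58.1 in R 4.3.3 (lmFit and eBayes with a mean-dependent trend) on log2(TPM + 1), which understates the change of low genes. They were two-sided, with Benjamini-Hochberg adjustment over all genes tested and calls at an adjusted p under 0.05. A gene entered a fit when 2 or more of its libraries had 1 TPM or more. L2C mDKO against control, and L2C against E2C in mDKO embryos, used 4 libraries each, injected E2C embryos 8 in 1 fit, and 4C embryos 6. Values after ± are standard errors. The fits were also run on simulated data with known changes. Those libraries were drawn independently of each other, so shifts of whole libraries were not covered. Alternatives were a pseudocount of 0.1, a filter of 5 TPM or none, median-ratio size factors, a replicate block and leaving out each library.

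The members and lists were chosen with earlier results of these data known. Named were the 10 members strongest in L2C control, the 8 with the lowest and the 8 with the highest mDKO fold change, members on the gene lists, the 5 on either side of 20 TPM, the 6 highest and 6 lowest at 4C, and called members of the injected contrasts, symbols of clones and predicted genes aside. Further members named within a role group were chosen after their values were seen. All 69 members matched RefSeq for GRCm38.p6, 63 by symbol and 6 by an older symbol. The values of 1 member are not reported here, though it is part of the counts.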

Additional observations from a re-analysis of the deposited data

Results flagged for a closer look

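In MII oocytes or E2C embryos without injection, 2 members had both mDKO libraries at 1 TPM or more and above both control libraries, where the control libraries had chosen them as low. Cox7a1 stood at 5.81 and 3.77 TPM in mDKO E2C embryos (mean 4.79 TPM) and at 0 and 1.02 TPM in control E2C embryos, and mCherry-injected mDKO embryos held 6.68 and 0.893 TPM against 1.82 and 0 TPM in mCherry-injected controls. Pitpnb had a mean of 1.59 TPM in mDKO MII oocytes, from 1.38 and 1.81 TPM, against 0.617 and 1.21 TPM in control oocytes. Neither difference was tested, and both levels are low.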

How the results depend on the processing

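The rule found 179 genes with a threshold of 10 TPM and 23 with 40 TPM. Without a filter on low TPM, which raised the genes tested from 12606 to 24412, 28 members were called lower and 0 higher at L2C, and over all genes 889 were lower where 2933 were with the filter. In injected E2C embryos the same setting gave 12 calls for mDKO against control, 10 higher and 2 lower. Of all 24412 genes, 10.5% were called higher and 6.92% lower in that contrast. It gave 6 members lower for Kdm3aWT, beside 3.02% of all genes, and 6 lower for Kdm3aHA, beside 2.64%. A pseudocount of 0.1 gave 1 member lower for Kdm3aWT, beside 8.96% of all genes tested. These counts describe and do not test. A filter of 5 TPM left no member to test in injected E2C embryos. Leaving out each library in turn gave 48 to 52 members lower and 0 to 2 higher at L2C, 67 to 68 higher from E2C to L2C in mDKO embryos, 2 to 5 calls for injected mDKO against control, 1 to 2 for Kdm3aWT, 1 to 2 for Kdm3aHA, and 0 to 3 for Kdm3aWT and 0 for Kdm3aHA at 4C. Slc22a20, at a log2 fold change of -0.09, ran from -0.37 to 0.20 over these fits and turned without mDKO replicate 2. Where a group kept 1 library, it was assumed to vary like the others.

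Samples of 2 groups share only a number: deviations of same-numbered libraries correlated between -0.097 and 0.177. With a replicate block, 58 members were lower and 1 higher at L2C, 68 rose within mDKO embryos, each injected E2C contrast kept a count of 3, and the 4C contrasts had 1 call each for Kdm3aWT and Kdm3aHA. Rps27 then passed (-1.68, adjusted p = 0.000261). Pseudocount, the 5 TPM filter and size factors moved the L2C count only between 53 and 56. The cause of these shifts was not tested. Depth is unknown, which limits what can be said of values near 0.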
